A study of Mus musculus with 6 samples.

Results

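The 9 genes described here are the interleukin 1 family ligands Il1a, Il1b, Il18 and Il33, the antagonist Il1rn, and the receptor genes Il1r1, Il1rl1, Il1rap and Il1r2. They were taken from a list of names, not by their values, but the list was chosen with earlier results of these data known. Shares of called starts and tiles below are thus not those of a set chosen blind to the data. The genes are 9 of 21938 protein-coding genes of the mouse annotation. Chromatin accessibility at their starts and along their loci was measured by single-cell ATAC-seq, in which a transposase cuts open DNA, in sorted horizontal basal cells (HBCs) of the dorsal olfactory epithelium. HBCs are the reserve stem cells that lie on the basal lamina and become active when the epithelium is injured. All mice were adults of the genotype Krt5CreER; Rosa26 LSL-YFP/LSL-YFP, in which Cre driven by the keratin 5 promoter turns on a YFP lineage label, so both groups carry the same alleles. The 3 uninjured libraries (treatment given as control) came from mice aged 8 weeks (replicate 1), 6 weeks (replicate 2) and 6 to 7 weeks (replicate 3). The 3 injured libraries came from mice of the same ages, taken 24 h after an intraperitoneal injection of methimazole, a drug that destroys olfactory epithelium. Epithelium was processed animal by animal and YFP-positive, propidium iodide-negative cells were sorted. The label marks the descendants of keratin 5 cells and not only cells that are HBCs at collection, and the sex of the mice is not given in the sources used here.

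Interleukin 1 family cytokines are early signals of tissue damage. Interleukin 1 alpha, interleukin 1 beta and interleukin 33 are made by epithelial or myeloid cells. Interleukin 1 alpha and beta bind the receptor encoded by Il1r1, and interleukin 33 binds ST2, encoded by Il1rl1. Both receptors signal only once they have recruited the accessory protein encoded by Il1rap, and the signal then runs through Myd88 and IRAK kinases to NF-kB and AP-1. The antagonist encoded by Il1rn occupies the interleukin 1 receptor without signalling, and the receptor encoded by Il1r2 binds interleukin 1 but lacks the signalling domain, so both dampen the response. Interleukin 18 uses a receptor of its own and is released after cleavage by caspase 1.

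The libraries held 8100227 to 23937953 fragments, and 420 to 1338 barcodes per library had at least 2000 fragments and were summed (4476 in all). A cut site is an end of a fragment, and cut sites of the 3 libraries of a group are listed below in the order of replicates 1 to 3. Injured replicate 3 stood apart within its group. Its promoter levels correlated with those of uninjured replicate 3 at r = 0.982 across tested starts on the log2 scale. The values with the other injured libraries were 0.975 and 0.973. The replicate 3 libraries shared 34 barcodes, where other pairs shared 0 to 4. Whether cells or barcodes carried over between these libraries was not tested, and 7 of the sites that changed are given below without injured replicate 3 and without shared barcodes. Among the markers of the sorted cells, 1 of 11 starts tested of 8 HBC genes was lower after injury (Icam1) and none was higher, and their summed promoter level was 526 ± 74.3 CPM in uninjured and 464 ± 62.1 CPM in injured libraries (SD, n = 3 each, exact two-sided permutation p = 0.4, where the smallest p that 3 against 3 libraries allow is 0.1). Summed over 12 immune genes, the promoter level was 75.5 to 82.3 CPM in uninjured and 108 to 150 CPM in injured libraries (p = 0.1 by the same exact test). Cd68 made up most of this sum, and without Cd68 and Coro1a it was 6.80 to 12.8 CPM against 20.9 to 32.0 CPM. Markers of sustentacular cells summed to 191 to 201 CPM in uninjured and 97.7 to 123 CPM in injured libraries (2 of 6 starts lower), and endothelial markers to 15.1 to 22.0 and 26.9 to 35.5 CPM (0 of 4 starts called). Barcodes of HBC-like clusters, described below, made up 85.2%, 76.8% and 76.8% of the uninjured and 92.7%, 79.3% and 61.5% of the injured libraries. The part of these shifts in the results was not tested, beyond the fits in HBC-like barcodes alone and without immune marker barcodes. Chromosome Y held 0.012% to 0.0206% of cut sites in uninjured and 0.00952% to 0.022% in injured libraries.

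Printed first are the stretches of the mouse genome (GRCm38, plus strand, 5′ to 3′) where the changes at these loci were found, since the results below turn on them. Each is the stretch of 300 bases with the most cut sites in the injured libraries inside tiles that passed the test, so its counts only describe it. The last is the part of the Il1rn promoter before the start that falls in the RefSeq promoter table. All sequence is from RefSeq GRCm38.p6. Capitals mark matches to the AP-1 motif TGANTCA or, in the Il1rn promoter, also to the NF-kB motif (GGGA, any 4 bases, then CC).
Il1rl1, inside an intron, chr1:40444839-40445138: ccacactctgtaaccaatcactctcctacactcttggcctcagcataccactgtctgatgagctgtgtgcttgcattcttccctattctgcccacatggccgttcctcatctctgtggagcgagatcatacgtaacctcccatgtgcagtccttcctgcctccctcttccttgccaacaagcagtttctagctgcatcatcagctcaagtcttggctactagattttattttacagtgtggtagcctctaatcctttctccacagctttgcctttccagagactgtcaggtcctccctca
Il18, inside an intron, chr9:50570191-50570490: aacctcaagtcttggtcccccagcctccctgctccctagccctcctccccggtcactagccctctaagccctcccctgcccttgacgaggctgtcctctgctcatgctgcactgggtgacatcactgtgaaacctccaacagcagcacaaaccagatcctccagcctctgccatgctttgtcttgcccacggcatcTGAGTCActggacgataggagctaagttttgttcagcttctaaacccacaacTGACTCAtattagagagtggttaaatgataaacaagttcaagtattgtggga
Il33, upstream of the gene, chr19:29912001-29912300: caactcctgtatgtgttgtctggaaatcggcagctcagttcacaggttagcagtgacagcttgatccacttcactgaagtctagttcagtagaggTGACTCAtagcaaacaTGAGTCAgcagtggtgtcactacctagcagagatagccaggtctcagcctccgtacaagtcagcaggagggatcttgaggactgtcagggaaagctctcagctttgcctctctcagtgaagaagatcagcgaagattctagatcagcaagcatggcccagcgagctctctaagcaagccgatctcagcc
Il1rap, upstream of the gene, chr16:26571792-26572091: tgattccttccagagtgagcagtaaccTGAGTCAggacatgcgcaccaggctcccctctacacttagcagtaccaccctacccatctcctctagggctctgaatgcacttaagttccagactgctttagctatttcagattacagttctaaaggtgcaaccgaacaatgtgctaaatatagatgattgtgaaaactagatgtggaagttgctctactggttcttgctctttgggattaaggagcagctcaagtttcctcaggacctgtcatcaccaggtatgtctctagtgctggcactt
Il1rn, upstream of the gene, chr2:24315443-24315742: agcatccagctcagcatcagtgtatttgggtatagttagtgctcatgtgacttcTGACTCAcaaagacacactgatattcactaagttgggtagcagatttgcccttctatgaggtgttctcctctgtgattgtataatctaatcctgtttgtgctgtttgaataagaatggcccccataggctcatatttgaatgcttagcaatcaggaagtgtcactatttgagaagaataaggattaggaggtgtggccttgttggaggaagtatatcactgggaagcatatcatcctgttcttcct
Il1rn, promoter before the start, chr2:24336610-24336852: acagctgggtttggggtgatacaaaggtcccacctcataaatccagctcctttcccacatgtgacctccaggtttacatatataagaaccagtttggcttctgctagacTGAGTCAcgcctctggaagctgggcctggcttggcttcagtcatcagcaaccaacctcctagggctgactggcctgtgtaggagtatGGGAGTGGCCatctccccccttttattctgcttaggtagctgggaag
The Il1rl1 stretch has no match inside it, and the nearest matches to TGANTCA lie just outside, at chr1:40444821-40444827 and chr1:40445150-40445156. The Il18 and Il33 stretches have 2 matches each, and the Il1rap and Il1rn stretches 1 each. In the Il18 stretch the cut sites numbered 0, 0 and 6 in uninjured libraries and 162, 86 and 65 in injured libraries.

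The first question was whether accessibility at these genes differed between HBCs of uninjured and injured epithelium. After injury, Il1rn, Il1rl1 and Il18 became more accessible at a start and at further sites. The call of the Il18 start was near the threshold and held in 10 of 17 alternative fits. Those of Il1rn and Il1rl1 held in 19 of 19 and 17 of 18. Tiles away from the starts were called at Il33, Il1rap, Il1r1 and Il1r2, whose starts were not called. Of the tested tiles 2.44% were called higher at Il33, 5.17% at Il1r1 and 3.85% at Il1r2, against 5.35% of all open tiles. These 3 shares do not exceed that of the genome. At Il1rap the share was 18.75%, 3 of 16 tiles. Starts and other sites were not tested against each other, and Il1r1 start 1 was called in some alternatives given below. No start or tile of the 9 loci was called less accessible in the whole sort. With scaling factors from 10 kb bins of the genome 2 starts (of Il1rap and Il1r1) and 2 tiles were, against 43.9% of all starts and 4.71% of all open tiles. In HBC-like barcodes alone 1 tile was (against 3.61%), and without the 5% deepest barcodes 1 tile was (1.94%). Promoters were windows of 1000 bp either side of a start, and levels at them are given as CPM. This is the cut sites of a window scaled to the TMM-adjusted total of its library over all tested promoter windows. Of 20 starts of the 9 genes, 16 had enough cut sites to be tested, 3 were called higher (edgeR, Benjamini-Hochberg adjusted p under 0.05) and 0 lower. Across the genome 2.37% of 25262 starts were called higher and 2.16% lower (599 and 545 starts, or 484 and 11084 with 10 kb bins). With 10 kb bins 3 member starts were called higher, against 1.92% of all starts, and with the 5′-most start of each gene only 1 was, against 1.99%. By unadjusted p under 0.05, 5 member starts were higher and 0 lower, against 10.4% and 11.5% of all starts. DESeq2 called 4 higher and 0 lower, against 3.66% and 3.28%. All 3 injured libraries lay above all 3 uninjured at 6 of the 16 starts, against 13.6% of all starts, and below them at 1, Il1r2 start 2, against 14.1%.

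**Figure D1:**
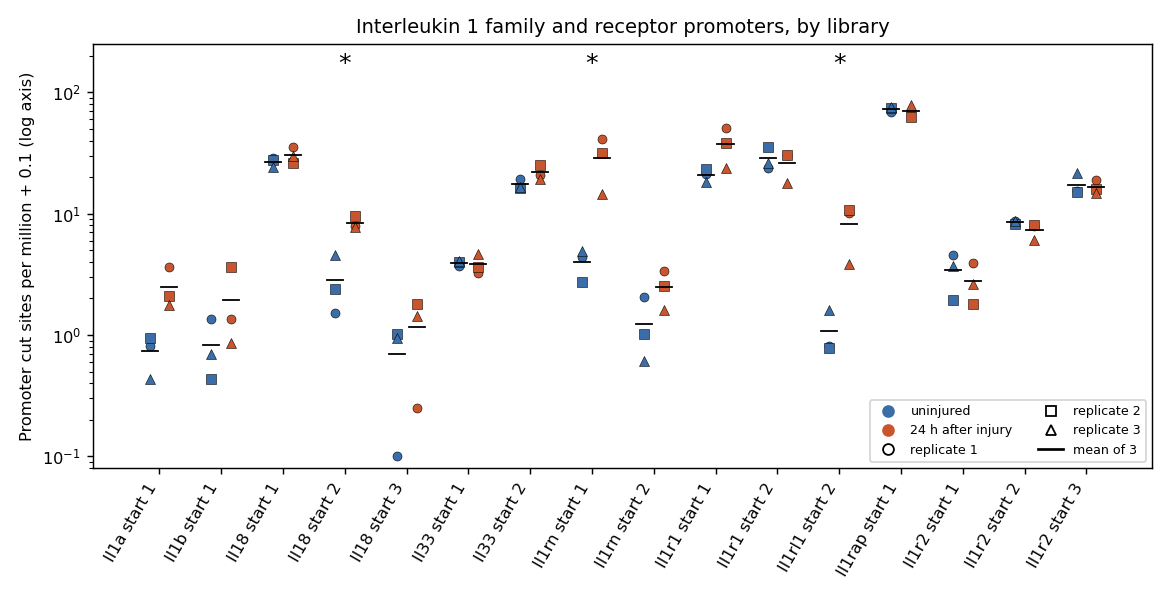
Promoter level of each tested start of the 9 genes in each library, in CPM plus 0.1 on a log axis. Blue points are uninjured and orange points injured libraries, symbols give the replicate, bars the mean of 3, and asterisks the 3 starts called higher: Il18 start 2, Il1rn start 1 and Il1rl1 start 2, at each of which the groups do not overlap.

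Each locus was then read in tiles of 500 bp over the gene body and 30 kb either side. A tile counted as open if its mean level, taken over all libraries, reached 5 times the level of the median tile. Tile levels are in CPM of the cut sites in tested open tiles. Some tiles near closed before injury, such as the intronic ones of Il1rl1 and Il18 below, counted as open only through the injured libraries. Shares called higher include such tiles, at these loci and in the genome, where the same rule was used. The 9 loci held 280 open tiles, of which 239 were tested, 31 were called higher and 0 lower. This is 12.97% of the tested tiles, against 5.35% called higher and 1.23% called lower among 419780 open tiles of the genome (22463 and 5179 tiles, or 13629 and 19783 with 10 kb bins). By unadjusted p under 0.05, 6 member tiles were lower, against 6.32% of all open tiles. DESeq2 called 36 higher and 0 lower, against 6.07% and 1.7%, and with 10 kb bins 19 were higher, against 3.25%. With the replicate number as a block, 33 tiles and 4 starts were higher, against 6.23% of all open tiles and 4.52% of all starts. The median log2 change was 0.33 over the member tiles and 0.06 over all open tiles. At 70 member tiles every injured library lay above every uninjured one (15.5% of all open tiles), and at 10 every one lay below (9.51% of all open tiles). Of the 31 called tiles, 15 lay in introns, 1 on an exon and 15 between protein-coding genes, and 3 were within 1000 bp of a start.

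Within the injured group, replicate 3 was the lowest library at 30 of the 31 called tiles. Without it, 45 member tiles and 4 starts were called higher, against 7.44% of all open tiles and 3.99% of all starts in that fit, so calls grew in number across the genome as well. The log2 rise was then 3.21 at Il1rn start 1, 3.33 at Il1rl1 start 2, 1.58 at Il18 start 2, 5.78 at the Il1rl1 intronic tile, 5.44 at the Il18 intronic tile, 2.30 at the Il33 upstream tile and 1.38 at the Il1rap upstream tile. Without injured replicate 1 or 2 the member tiles called higher were 13 and 8, against 1.48% and 1.08% of all open tiles. Without uninjured replicate 1, 2 or 3 they were 12, 13 and 34, against 1.92%, 2.17% and 4.68%. Member starts called higher were 2 and 1 without injured replicate 1 or 2, against 0.588% and 0.465% of all starts, and 2, 2 and 3 without uninjured replicate 1, 2 or 3, against 0.729%, 0.833% and 2.34%. Without barcodes seen in more than 1 library, an alternative chosen after seeing the data, 32 tiles and 3 starts were higher, against 5.24% of all open tiles and 2.68% of all starts, and the same 7 sites rose by 2.86, 3.03, 1.56, 5.43, 5.10, 2.10 and 1.14. Because cut sites were summed over barcodes, more cells of a type and more cut sites per cell cannot be told apart in these values.

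**Figure D2:**
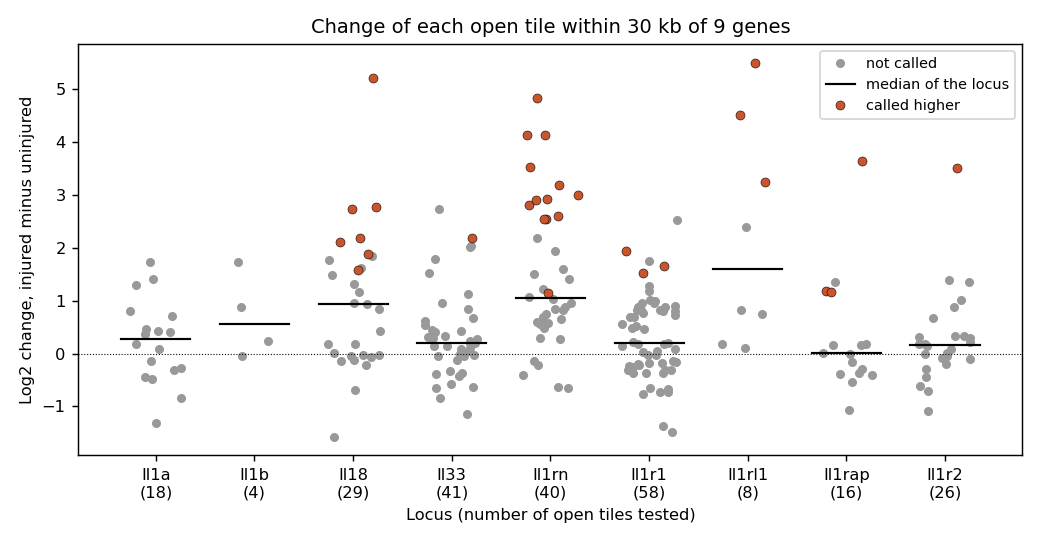
Log2 change (injured minus uninjured) of each tested open tile at the 9 loci, with the number of tiles under each name. Points are tiles, orange where called higher, and bars are the median of the locus; Il1rn holds 13 of the called tiles, Il18 holds 7, and Il1a and Il1b hold none.

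Il1a and Il1b, the genes of the classical agonists, had few cut sites at their starts in either group. At the Il1a start (chr2:129309972, minus strand) there were 4, 10 and 4 cut sites in uninjured libraries and 48, 14 and 20 in injured libraries. The injured libraries were all higher, at 2.41 ± 1.02 CPM against 0.633 ± 0.263 CPM (SD, n = 3 each), but the log2 difference of 1.94 ± 0.607 (SE) did not pass the test (edgeR, adjusted p = 0.0841). It passed when libraries were scaled by total cut sites (1.68, adjusted p = 0.0466). The difference was smaller in that fit, where the median log2 of all promoters was -0.23. None of the 18 tiles tested at the Il1a locus was called. Its most accessible tile lies on an exon of the neighbour Ckap2l and read 36.6 ± 4.95 CPM in uninjured and 29.4 ± 2.59 CPM in injured libraries (log2 -0.31, adjusted p = 0.169).

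The Il1b start (chr2:129371139, minus strand) had 7, 4 and 7 cut sites in uninjured libraries and 17, 25 and 9 in injured libraries. The groups overlapped once scaled, at 0.34 to 1.25 CPM and 0.75 to 3.55 CPM (log2 1.40, adjusted p = 0.300; 0.57 to 1.91 on the log2 scale with 1 library left out). Barcodes with cut sites at 3 or more immune marker promoters made up 0%, 0.787% and 0.477% of the uninjured and 1.57%, 2.38% and 2.41% of the injured libraries. With these barcodes left out, the cut sites at the Il1b start were 7, 4 and 7 in uninjured and 9, 3 and 6 in injured libraries. At Il1a the same step left 46, 7 and 16 in injured libraries (log2 1.70, adjusted p = 0.176). Only 4 tiles at the Il1b locus were open. The highest of them lies nearer to the start of Il1a, is counted at both loci, and read 0.554 ± 0.386 CPM in uninjured and 1.70 ± 0.995 CPM in injured libraries (log2 1.74, adjusted p = 0.129).

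Il18 has 3 starts, of which the middle one was called higher and the others were not; the difference between starts was not tested. Start 1 (chr9:50554827) lies in a window that also holds the start of the neighbour Bco2, so its cut sites cannot be assigned to either gene. It read 26.6 ± 2.44 CPM in uninjured and 30.5 ± 4.68 CPM in injured libraries (log2 0.21, adjusted p = 0.504), and its sign turned under other scalings. Over the gene body and 2 kb upstream Il18 was called higher (log2 0.69, adjusted p = 0.0283). Start 2 (chr9:50565374) had 8, 27 and 53 cut sites in uninjured and 106, 66 and 92 in injured libraries. Every injured library was above every uninjured one, at 8.32 ± 0.919 CPM against 2.73 ± 1.57 CPM, a log2 rise of 1.55 ± 0.403 (edgeR, adjusted p = 0.0454). This call was near the threshold and held in 10 of 17 alternatives. It was lost without injured replicate 1 (1.59, adjusted p = 0.128) or 2 (1.46, 0.155), without uninjured replicate 1 (1.29, 0.150) or 2 (1.40, 0.152), without the immune marker barcodes (1.52, 0.0558), without the 5% deepest barcodes (1.26, 0.157) and with barcodes of at least 20% of cut sites in open tiles (1.53, 0.0539). Start 3 had 0, 11 and 10 against 2, 12 and 16 cut sites (log2 0.63, adjusted p = 0.735).

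Inside Il18, the intronic tile chr9:50570001-50570500 was closed before injury. It held 0, 0 and 8 cut sites in uninjured libraries and 175, 93 and 72 in injured libraries. The rise was from 0.11 ± 0.19 CPM to 4.93 ± 1.85 CPM, a log2 difference of 5.20 ± 0.765 (edgeR, adjusted p = 0.00341), which passed in every alternative run (highest adjusted p 0.0361). All of its uninjured cut sites came from replicate 3, so with 1 library left out the log2 ran from 4.54 to 9.71, the last without uninjured replicate 3, where the uninjured libraries are at 0 and the fitted value is no bound. A second site downstream of Il18, chr9:50591001-50591500, rose from 14, 16 and 40 to 120, 96 and 127 cut sites (log2 2.11 ± 0.377, adjusted p = 0.00762; 0.0720 without injured replicate 2). Of the other 5 called tiles at the locus, 3 lie in introns of Bco2 and 1 in an intron of Pts. The downstream site lies nearest to the start of Sdhd, and tiles were assigned to Il18 by distance alone. In all, 7 of 29 tested tiles rose, with a locus median log2 of 0.94.

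Il33 encodes a nuclear cytokine that is released from damaged epithelial cells and is the ligand of ST2. Neither of its 2 tested starts was called. Start 1 (chr19:29925114) had 20, 46 and 47 cut sites in uninjured and 42, 25 and 54 in injured libraries, which is 3.81 ± 0.207 CPM against 3.73 ± 0.715 CPM (log2 -0.03, adjusted p = 0.969). Start 2 (chr19:29945790), the most accessible, read 19.1, 16.3 and 16.5 CPM in uninjured and 20.9, 25.3 and 19.2 CPM in injured libraries (log2 0.33 ± 0.201, adjusted p = 0.360). The injured libraries were all higher there, by a small margin. Both signs turned under some alternatives. Start 3 (chr19:29951816) had 4, 10 and 5 cut sites in uninjured and 8, 6 and 11 in injured libraries, too few to be tested.

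Of 41 tested tiles at Il33, 1 was called, chr19:29912001-29912500, between genes and 12864 bp before start 1. It held 12, 34 and 20 cut sites in uninjured and 164, 84 and 99 in injured libraries. The groups were well apart, at 1.09 ± 0.29 CPM and 4.96 ± 0.96 CPM, a log2 rise of 2.18 ± 0.337 (edgeR, adjusted p = 0.00419; highest over all alternatives 0.0466). In HBC-like barcodes alone a further tile was called, chr19:29932501-29933000 in an intron of Il33 (log2 1.37, adjusted p = 0.0370). In the whole sort that tile read 3.11 CPM in uninjured and 4.21 CPM in injured libraries, a smaller change, and was not called. The AP-1 matches of the upstream tile are the pair capitalised in the Il33 stretch above. The most accessible Il33 tile, in an intron near start 2, read 5.87 ± 0.471 CPM in uninjured and 5.63 ± 0.887 CPM in injured libraries (log2 -0.05, adjusted p = 0.949).

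Il1rn, the antagonist gene, had the most called tiles of the 9 loci. At start 1 (chr2:24336853) the cut sites were 24, 31 and 57 in uninjured libraries and 552, 221 and 171 in injured libraries. In CPM this was 4.29, 2.62 and 4.82 against 41.1, 31.4 and 14.3, so that the lowest injured library, replicate 3, was still far above the highest uninjured one. The log2 rise was 2.90 ± 0.387 (edgeR, adjusted p = 0.00364) and passed in all 19 alternatives, where it ran from 2.04 to 3.21 with a highest adjusted p of 0.0304. Start 2 (chr2:24345288), inside the gene, had 11, 11 and 6 against 44, 17 and 18 cut sites and was not called (log2 1.17, adjusted p = 0.276).

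At the Il1rn locus 13 of 40 tested tiles rose, and the locus median was 1.05 on the log2 scale. The tile over the start, chr2:24336501-24337000, went from 15, 23 and 45 to 459, 183 and 138 cut sites (log2 2.99 ± 0.396, adjusted p = 0.00231). A group of 6 called tiles lay 18103 to 21603 bp upstream. Among them, chr2:24315501-24316000 held 13, 17 and 15 cut sites in uninjured and 244, 72 and 94 in injured libraries (log2 2.81 ± 0.407, adjusted p = 0.00317). The tallest of the group, chr2:24317001-24317500, rose from 1.40 ± 0.75 CPM to 8.39 ± 4.27 CPM (log2 2.55 ± 0.449, adjusted p = 0.00737), and its call was lost without uninjured replicate 1 (2.40, 0.0506) or injured replicate 2 (2.56, 0.0541). Inside the gene, chr2:24341501-24342000 rose from 5, 9 and 0 to 179, 85 and 37 cut sites (log2 4.12 ± 0.800, adjusted p = 0.0115; 3.42 to 4.72 with 1 library left out, and adjusted p 0.0785 without injured replicate 2). By contrast the most accessible tile within reach, at an exon of the neighbour Psd4, read 12.3 ± 0.969 CPM and 10.5 ± 2.63 CPM (log2 -0.22, adjusted p = 0.633). Of the 13 called tiles, 1 lies nearest to the start of Psd4, and 1 (chr2:24306501-24307000, upstream of Il1rn) lies nearer to the start of Il1f10, at 15554 bp.

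**Figure D3:**
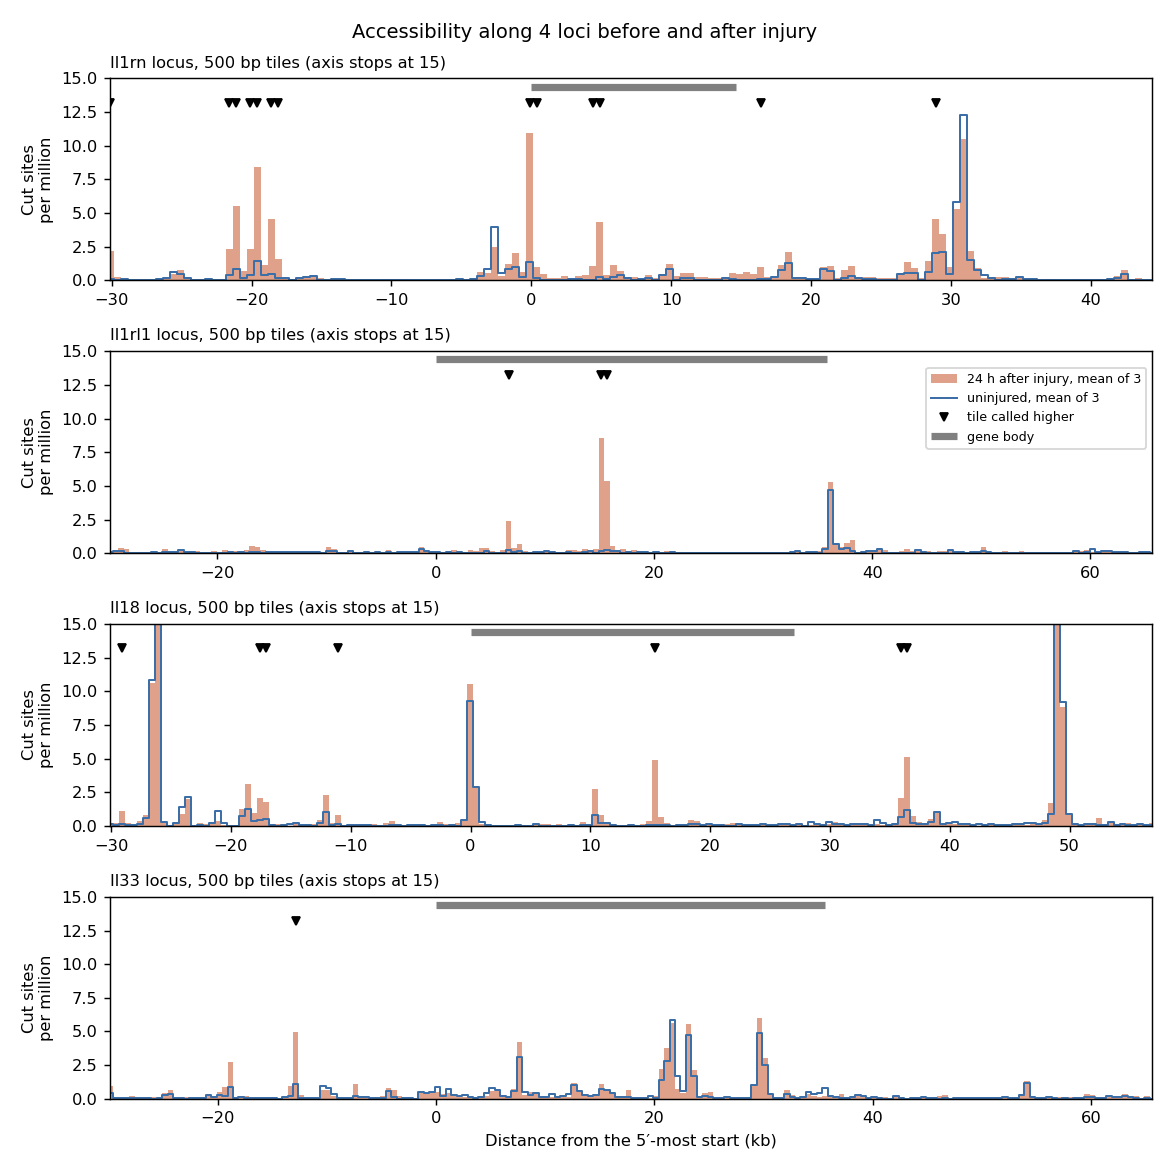
Mean accessibility of the 3 uninjured libraries (blue line) and the 3 injured libraries (orange area) in 500 bp tiles along the Il1rn, Il1rl1, Il18 and Il33 loci, in CPM against distance from the 5′-most start in kb. Triangles mark tiles called higher and grey bars the gene body; the axis stops at 15 CPM, which cuts off 2 tall peaks at the Il18 locus.

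Il1r1, the signalling receptor of interleukin 1, was accessible at both of its starts before injury. Start 1 (chr1:40225080) read 21.1, 23.3 and 18.3 CPM in uninjured and 50.5, 38.1 and 23.6 CPM in injured libraries. The injured libraries were all higher, with replicate 3 only just above uninjured replicate 2, and the log2 difference of 0.84 ± 0.239 missed the threshold (edgeR, adjusted p = 0.0663). It passed without injured replicate 3 (1.08, adjusted p = 0.00118), in HBC-like barcodes alone (0.96, 0.00833), by DESeq2 (0.84, 0.0104), with the replicate block (0.77, 0.00915) and with a window of 500 bp either side (1.00, 0.0451). Start 2 (chr1:40266586) read 28.5 ± 6.17 CPM and 26.1 ± 7.09 CPM (log2 -0.14, adjusted p = 0.761), and its sign turned without uninjured replicate 2 or injured replicate 3. With 10 kb bins start 2 was called lower (-0.66, adjusted p = 0.0112), where the median of all promoters is -0.48.

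Of 58 tested tiles at Il1r1, 3 were called higher, all with adjusted p-values near the threshold. The intronic tile chr1:40275001-40275500 held 14, 31 and 23 cut sites in uninjured and 116, 60 and 51 in injured libraries (log2 1.51 ± 0.384, adjusted p = 0.0374). The tile chr1:40217001-40217500, 7830 bp upstream, went from 9, 12 and 29 to 82, 48 and 49 cut sites (log2 1.65 ± 0.431, adjusted p = 0.0425). These calls were weak. Each of the 2 held in 8 of 16 alternatives and was lost without uninjured replicate 1 (adjusted p 0.121 and 0.144) or 2 (0.115 and 0.175) and without injured replicate 1 (0.218 and 0.184) or 2 (0.218 and 0.226), the intronic one also without uninjured replicate 3 (0.0838). The third, the intronic tile chr1:40235501-40236000, went from 6, 12 and 14 to 92, 33 and 22 cut sites (log2 1.93 ± 0.521, adjusted p = 0.0484) and was the least stable called tile of the 9 loci, with its call kept in 4 of 16 alternatives. It was lost without uninjured replicate 1 (adjusted p 0.155), 2 (0.175) or 3 (0.0830), without injured replicate 1 (0.308) or 2 (0.196), with the replicate block (0.0556) and without barcodes seen in more than 1 library (0.0635). In HBC-like barcodes alone the tile at start 1, chr1:40225001-40225500, was also called (log2 0.93, adjusted p = 0.0353), against 0.95 and 0.0728 in the whole sort. The tallest Il1r1 tile, in an intron, read 14.3 ± 1.01 CPM and 15.2 ± 3.32 CPM (log2 0.09, adjusted p = 0.867).

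Il1rl1 encodes ST2, the receptor of interleukin 33, which is best known from mast cells and other immune cells. Of its 4 starts only start 2 (chr1:40436589) had enough cut sites to be tested, and it had them through the injured libraries. The cut sites were 4, 8 and 18 in uninjured and 134, 75 and 45 in injured libraries. In CPM this was 0.72, 0.68 and 1.52 against 9.97, 10.7 and 3.77, with no overlap, a log2 rise of 3.00 ± 0.510 (edgeR, adjusted p = 0.00717; 0.0549 without injured replicate 2). At the other starts the cut sites numbered 0 to 16 in uninjured and 2 to 24 in injured libraries.

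Deep in the Il1rl1 gene, chr1:40444501-40445000 in an intron showed the largest log2 change among the member tiles. It held 3, 3 and 5 cut sites in uninjured libraries and 356, 143 and 114 in injured libraries. The region was closed in every uninjured library, at 0.20 ± 0.07 CPM, and open in every injured one, at 8.59 ± 3.81 CPM. The log2 rise was 5.49 ± 0.486 (edgeR, adjusted p = 0.00141) and passed in all 16 alternatives, between 5.04 and 5.78. The adjoining tile, chr1:40445001-40445500, rose from 2, 3 and 9 to 205, 92 and 82 cut sites (log2 4.51 ± 0.493, adjusted p = 0.00151; 4.16 to 5.18 on the log2 scale with 1 library left out). Only 8 tiles of the locus were tested, of which 3 rose. Those 3 were near closed before injury and counted as open only through the injured libraries. So 3 of 8 is not the share of a set chosen blind to the change. The tallest tile over all libraries lies on an exon of the neighbour Il18r1 and was not called (log2 0.17, adjusted p = 0.862).

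Mast and other immune markers were read beside Il1rl1. The summed promoter level of Cpa3, Ms4a2 and Fcer1a was 0.36 to 0.84 CPM in uninjured and 0.71 to 1.71 CPM in injured libraries, and none of the 3 had enough cut sites to be tested. With the immune marker barcodes left out, the cut sites at Il1rl1 start 2 were 4, 8 and 18 against 122, 67 and 33. This step took 0 of the 119 barcodes of cluster 6 (clusters are described below), which had a median of 3816 fragments. Mast markers stood highest in that cluster (median log2 over other cells 2.02). The step thus cannot show that mast or other immune cells were removed. In HBC-like barcodes alone they were 4, 6 and 18 against 122, 71 and 39. Among the 12 immune genes, 1 of 15 starts tested was higher (Cd68) and 0 were lower, and each of the 12 had at least 1 cut site.

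Il1rap, the accessory chain of both receptors, had the most accessible promoter of the 9 genes. Its start (chr16:26581704) read 68.7, 74.1 and 75.6 CPM in uninjured and 68.5, 62.2 and 78.2 CPM in injured libraries. The groups overlapped (log2 -0.06 ± 0.100, adjusted p = 0.757). With factors from 10 kb bins of the whole genome, which bring the median log2 of all promoters to -0.48, it read -0.55 (adjusted p = 0.00529), close to that median.

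At 9954 bp before the Il1rap start, the tile chr16:26571501-26572000 rose from 62, 116 and 115 to 443, 172 and 191 cut sites. In CPM it read 5.45, 4.77 and 4.67 against 14.8, 11.4 and 7.41, with no overlap and a log2 rise of 1.18 ± 0.247 (edgeR, adjusted p = 0.0162). Without uninjured replicate 1 or 2 the adjusted p was 0.0644 and 0.0819, without injured replicate 1 or 2 it was 0.132 and 0.119, and with 10 kb bins it was 0.101. The next tile moved with it (log2 1.16, adjusted p = 0.0241) and lost its call in the same 5 fits and without the 5% deepest barcodes (0.0658). Within an intron of Il1rap, chr16:26626001-26626500 rose from 0, 6 and 4 to 56, 46 and 31 cut sites (log2 3.63 ± 0.667, adjusted p = 0.00887; 0.0715 without injured replicate 2). The other 13 tested tiles were not called, and the locus median was 0.00.

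Il1r2, the decoy receptor, was accessible at similar levels in both groups. Its starts 1 to 3 (chr1:40074079, chr1:40084698 and chr1:40085985) had log2 differences of -0.26, -0.22 and -0.07 (adjusted p = 0.787, 0.693 and 0.889). Start 3 read 17.2 ± 3.59 CPM in uninjured and 16.5 ± 2.14 CPM in injured libraries, and its sign turned without uninjured replicate 3. Of 26 tested tiles 1 rose, in an intron (chr1:40088501-40089000), from 1, 0 and 5 to 64, 12 and 14 cut sites (log2 3.50 ± 0.880, adjusted p = 0.0363). Injured replicate 1 carried most of these cut sites, and without it the adjusted p was 0.257. It was also over the threshold without injured replicate 2 (0.107) and without uninjured replicate 1 (0.132) or 2 (0.126) and with 10 kb bins (0.0564). With 1 library left out the log2 ran from 2.58 to 5.06, the last without uninjured replicate 3.

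The order of levels takes each gene's most accessible start in either group and the starts called higher. In uninjured libraries the Il1rap start (72.8 ± 3.63 CPM) stood far above Il1r1 start 2 (28.5 ± 6.17), Il18 start 1 (26.6 ± 2.44, in the window shared with Bco2) and Il1r1 start 1 (20.9 ± 2.54). Il1r1 start 2 and Il18 start 1 differed by less than their spread. Il33 start 2 (17.3 ± 1.59) and Il1r2 start 3 (17.2 ± 3.59) followed and overlapped each other and Il1r1 start 1. Il1rn start 1 (3.91 ± 1.15) and Il18 start 2 (2.73 ± 1.57) were low, and Il1rl1 start 2 (0.971 ± 0.477), Il1b (0.727 ± 0.472) and Il1a (0.633 ± 0.263) were lowest and overlapped. In injured libraries the Il1rap start (69.6 ± 8.04) was again the highest. Il1r1 start 1 (37.4 ± 13.5), Il18 start 1 (30.5 ± 4.68), Il1rn start 1 (28.9 ± 13.5), Il1r1 start 2 (26.1 ± 7.09) and Il33 start 2 (21.8 ± 3.15) each overlapped the next in that order, while Il1r2 start 3 (16.5 ± 2.14) lay below every library of Il33 start 2. Il18 start 2 (8.32 ± 0.919) and Il1rl1 start 2 (8.13 ± 3.79) overlapped below them, and Il1a (2.41 ± 1.02) and Il1b (1.86 ± 1.49) were lowest. All windows have the same length, so levels can be compared between windows, though a shared window is not the level of 1 gene.

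The cells were also clustered, which gave 9 clusters, of which 5 (numbers 1, 2, 3, 8 and 9) were called HBC-like from the whole HBC marker list. No HBC marker was among their 10 leading genes, and another list stood slightly above HBC markers in 3 of them: Bowman gland in cluster 3, fibroblast in cluster 8 and, in cluster 9, mast (median log2 over other cells 0.21 against 0.19). Clusters were built on all regions, these loci included, so what follows is a description without a test. Cluster 9 held 970, 248 and 142 injured cells by library and 3 uninjured cells in all, and Il1rl1 was among its 10 leading genes. Cluster 1 held 947 uninjured cells of 958. Cluster 2 was drawn from all 6 libraries, with 64 to 304 cells each.

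Within cluster 9 the Il1rl1 intronic tile stood at 11.4, 10.6 and 11.7 CPM (here of all cut sites of the cluster in a library) in injured replicates 1 to 3, and the Il1rn start at 16.2, 15.2 and 13.4 CPM. Replicate 3, the lowest injured library in the sums, was level with the others at the Il1rl1 tile, a locus among the leading genes of the cluster, and again the lowest at the Il1rn start. In cluster 2 the Il1rl1 tile read 0 to 0.25 in uninjured and 0 to 0.57 in injured libraries, so injured cells of that cluster had almost none of it. The Il33 upstream tile differed from this: in cluster 2 it read 1.6, 4.1 and 0.2 in uninjured and 3.9, 3.9 and 3.7 in injured libraries, close to the 4.2, 4.9 and 3.9 of cluster 9. The Il1rap upstream tile read 4.0 to 6.2 in uninjured and 6.4 to 7.8 in injured cells of cluster 2, and 9.9 to 12.4 in cluster 9.

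**Figure D4:**
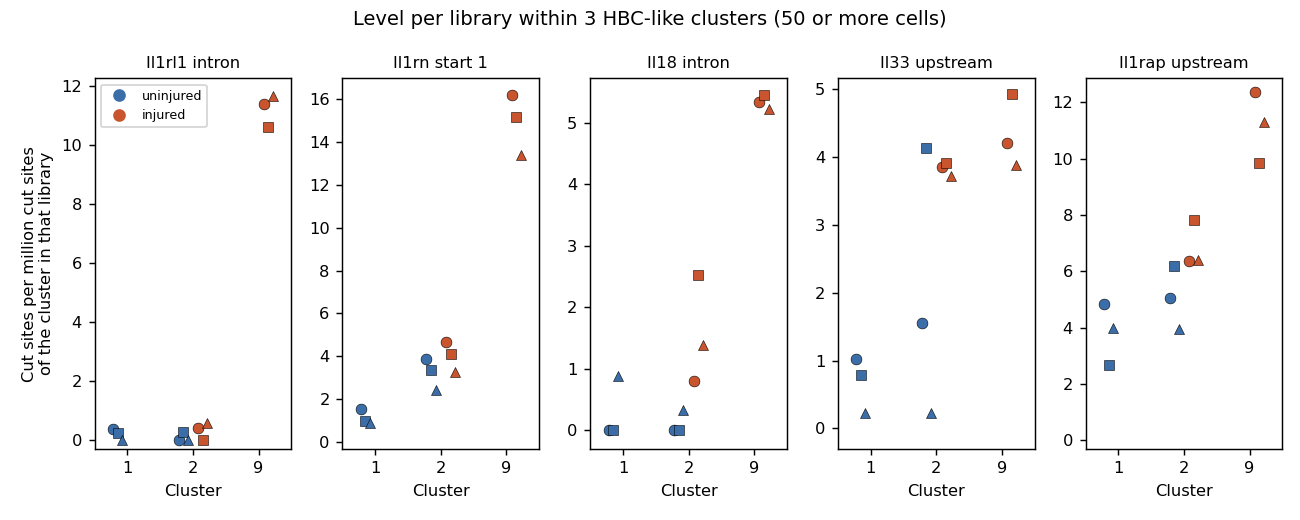
Level of 5 sites in each library within clusters 1, 2 and 9, in CPM of the cut sites of that cluster in that library, for libraries with at least 50 cells there. Blue points are uninjured and orange points injured libraries, with circles, squares and triangles for replicates 1, 2 and 3; the Il1rl1, Il1rn and Il18 sites are higher in cluster 9 in all 3 injured libraries than in any library of clusters 1 and 2.

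Outside the HBC-like clusters, the Il1b start read most in the sustentacular-like cluster 5, at 2.01 CPM (25 cut sites pooled over libraries, exact 95% Poisson interval 1.30 to 2.96, counting error only), against 0.612 or less in every other cluster. Cluster 6 had 0 cut sites with an interval up to 2.62, which covers the value of cluster 5, and these pooled values mix groups in shares that differ between clusters (193 uninjured and 91 injured cells in cluster 5). That cluster also held 17 of the barcodes with 3 or more immune promoters, out of 284 cells, and cluster 9 held 23 out of 1363. Il33 start 1 was highest in cluster 5 (4.17, 3.12 to 5.47) and in the immature neuron-like cluster 4 (3.00, 2.26 to 3.92), while Il33 start 2 read 9.30 (8.39 to 10.3) in cluster 2. When only HBC-like barcodes were fitted, 191 member tiles were tested, 34 rose and 1 fell, against 9.29% and 3.61% of 295906 open tiles. All 30 member tiles called in the whole sort that could be tested there were called again. The tile that fell lies on an exon of Ckap2l in the Il1a locus (log2 -0.46, adjusted p = 0.0401).

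Partners of these genes were read from a list of 47 further genes of the pathway. Of 70 tested starts 4 were higher and 2 lower, against 2.37% and 2.16% of all starts, and the median log2 was -0.07 against 0.02 for all promoters. Among 6 other ligands and binding proteins 1 of 4 tested starts rose, that of Il1f9, which encodes the epithelial cytokine interleukin 36 gamma, from 12, 7 and 4 to 151, 75 and 39 cut sites (log2 3.22 ± 0.661, adjusted p = 0.0207; 0.0823 and 0.0924 without injured replicate 1 or 2, 0.106 without uninjured replicate 2, 0.111 without the 5% deepest barcodes and 0.0766 without barcodes seen in more than 1 library). With 1 library left out the log2 at Il1f9 ran from 2.75 to 4.12. Among the other receptors 1 of 7 rose, start 2 of Sigirr, an inhibitory member of the receptor family (log2 2.06 ± 0.452, adjusted p = 0.0233). Start 1 of Sigirr, the more accessible one, read 35.8 CPM in uninjured and 44.0 CPM in injured libraries and was not called (log2 0.30, adjusted p = 0.246).

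Further downstream few starts were called in either direction, where 2.37% of all starts were called higher and 2.16% lower. Of 27 tested starts of NF-kB genes 1 rose, start 2 of Ikbkb, the kinase that releases NF-kB from its inhibitor. It had 10, 11 and 12 cut sites in uninjured and 261, 87 and 91 in injured libraries (log2 3.47 ± 0.440, adjusted p = 0.00183), with no overlap. Start 1 of Ikbkb, its most accessible, was not called, at 59.0 CPM in uninjured and 58.0 CPM in injured libraries (log2 -0.02, adjusted p = 0.928). Of 19 tested starts of signalling genes 1 rose and 1 fell. Start 2 of Tab2, an adaptor of the kinase TAK1, rose from 3, 12 and 9 to 76, 26 and 28 cut sites (log2 2.28 ± 0.524, adjusted p = 0.0289). Start 1 of Tab2, the more accessible one, read 106 CPM in uninjured and 95.7 CPM in injured libraries and was not called (log2 -0.16, adjusted p = 0.347). Start 2 of Myd88, the adaptor of all signalling interleukin 1 receptors, fell from 67.8 ± 3.12 CPM to 48.8 ± 2.71 CPM (log2 -0.47 ± 0.098, adjusted p = 0.0186). Start 1 of Myd88, the more accessible one, read 136 CPM in uninjured and 116 CPM in injured libraries and was not called (log2 -0.23, adjusted p = 0.139). Of 13 tested starts of processing genes 1 fell, start 1 of Casp4, an inflammatory caspase (log2 -0.80 ± 0.208, adjusted p = 0.0465). The calls of Myd88, Sigirr and Tab2 were each lost without uninjured replicate 1 or 2 and without injured replicate 1 or 2 (adjusted p 0.0580 to 0.162). That of Tab2 was also lost without uninjured replicate 3 (0.0501), and those of Myd88 and Sigirr with 500 bp either side of a start (0.0934 and 0.0714). That of Casp4 was kept in 7 of 18 alternatives. It was lost without any 1 of the 6 libraries (0.0538 to 0.189), in 3 smaller sets of barcodes and without immune marker barcodes (0.0550 to 0.0850), and with the 5′-most start only (0.0555).

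The AP-1 motif TGANTCA, searched on both strands, was found in 20 of the 31 called member tiles (64.5%) and in 41 of the 208 tested member tiles that were not called (19.7%). In all open tiles it was found in 20.3%, in those called higher in 59.7% and in those called lower in 7.45%. So the called member tiles held it about as often as called tiles elsewhere. The NF-kB motif (GGGA, any 4 bases, then CC, on either strand) was found in 6 of the 31 called member tiles (19.4%) and in 42 of the 208 others (20.2%), against 22.9% of all open tiles. In stretches of 300 bases from the centres of all open tiles, 12.8% held the first motif and 14.5% the second. A match describes letters and not binding.

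The promoters most like those of the 3 most accessible members were sought by the Pearson correlation of log2(CPM + 1) over the 6 libraries, among 17616 starts with a mean of at least 5 CPM. The Il1rap start was closest to Sorbs2 (r = 0.994), Cc2d2a (0.983) and Ahr (0.982). Il1r1 start 1 was closest to Pvr (0.997), Erbb4 (0.993) and start 4 of Ptpre (0.992). For Il18 start 1 the closest was Bco2 (0.999), whose window it shares, and then start 2 of Esrrb (0.987) and Pggt1b (0.986). With 6 libraries and this many candidates such values describe likeness in these samples only.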

How the data were processed

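Per the labels, each library is a 10x Genomics single-cell ATAC-seq sample of sorted cells. The deposited fragment files list each deduplicated fragment with its barcode and a count of read pairs, and the authors also deposited a matrix of raw counts per peak and barcode. Cell Ranger 2.0.0 and mm10 are named per the submitters' processing notes, and software version 1.2.0 per the file headers of the matrices. The matrices were not used for any value here, since their lines carry no coordinates. All fragments fitted within the GRCm38 chromosome lengths.

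Fragment ends were counted as cut sites with no further shift, over barcodes with at least 2000 fragments, which gave 14825320 to 44875242 cut sites per library. Starts of protein-coding transcripts (GENCODE M21) within 1000 bp of one already kept were joined to it. Groups were compared with edgeR 4.0.16 (quasi-likelihood, robust, TMM, filterByExpr) in R 4.3.3, group as the only term, with Benjamini-Hochberg adjustment over all features tested and a threshold of 0.05. Adjusted p-values in the text are from this fit unless DESeq2 1.42.0 is named. Each library was a biological replicate per the labels, which do not give the number of animals in it, so p-values measure the spread between libraries. On simulated data for the comparison of injured with uninjured promoters (25262 features), 198 of 200 features changed by a log2 of 1 were called and 199 of 200 changed by 2, with 25 of 24862 unchanged ones called. For tiles (419780 features), 6 of 200 and 69 of 200 were called, with 15 of 419380 unchanged ones. The changed features were drawn from those with a mean level at or above the median, and all others were left unchanged. In the data far more tiles were called (22463 higher and 5179 lower), which makes the adjusted threshold less strict there. Changes of tiles, those by a log2 of 2 included, often went uncalled in the simulation. It does not give the share missed in the data, nor that for starts of low level.

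Clusters came from TF-IDF, 30 components less 1, 15 neighbours and Leiden resolution 0.5 (Python 3.11.15 with scikit-learn 1.9.0, scanpy 1.11.5 and igraph 0.11.9) over 4403 barcodes with at least 20% of cut sites in open tiles. Doublets were not called or removed. Lists of marker and pathway genes, the motifs and the 9 genes were chosen with earlier results of these data known. Named are all member starts, the 2 called tiles of each locus with the smallest adjusted p and its most accessible tile, and called pathway genes. The Il1rn tiles at 24306501, 24317001 and 24341501, the Il1r1 tiles at 40225001 and 40235501, the Il33 tile at 29932501, the second Il1rap tile and the Ckap2l tile called lower in HBC-like barcodes were named outside this rule after their values were seen. The distinct barcode sequences seen in more than 1 library numbered 53, and each was removed from every library that held it. All coordinates are 1-based on GRCm38. Promoter sequences matched all 9 genes in the RefSeq table (14 entries).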

Additional observations from a re-analysis of the deposited data

How the results depend on the processing

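Of 40 called results (member starts, member tiles and pathway starts), all kept their direction in every alternative run. DESeq2 kept 40 of 40 calls, HBC-like barcodes 39 of 39, and removal of immune marker barcodes 38 of 40. Calls depended on which library was left out: 15, 10 and 39 of 40 held without injured replicate 1, 2 and 3, and 16, 16 and 34 without uninjured replicate 1, 2 and 3. The cause was not tested. With factors from 10 kb bins, which lower the median log2 of all promoters to -0.48 and of tiles to -0.35, 28 of 40 held.

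All promoters called higher numbered 599, with a replicate block 1141, with DESeq2 924, in HBC-like barcodes 990, with the 5′-most start only 346, and 121 to 1071 with 1 library left out. Those called lower numbered 545, with a replicate block 1693, with DESeq2 828, with 10 kb bins 11084, by total cut sites 7046, without the 5% deepest barcodes 348, with 500 bp windows 299, with the 5′-most start only 237, and 59 to 1078 with 1 library left out. Member starts called higher numbered 1 with the 5′-most start only and 1 to 4 with 1 library left out, and 2 were called lower with 10 kb bins. All tiles called higher numbered 13629 with 10 kb bins and 5028 to 34409 with 1 library left out. Those called lower numbered 19783 with 10 kb bins, 9737 by total cut sites, 10673 in HBC-like barcodes and 614 to 9969 with 1 library left out. Member tiles called higher numbered 19 with 10 kb bins and 8 to 45 with 1 library left out, and those called lower 2 with 10 kb bins, 1 in HBC-like barcodes and 1 without the 5% deepest barcodes. Beyond what the settings themselves alter, the cause was not tested.

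Signs turned, never with a call, for 6 starts. With 1 library left out, Il1r2 start 3 ran from -0.18 to 0.12, Il1r1 start 2 from -0.26 to 0.058, Il1rap start 1 from -0.17 to 0.0042 and Il33 start 1 from -0.22 to 0.091. Over the gene body Il1r2 read 0.0071 and Il1rap 0.038, and with the 5′-most start only Il33 start 1 read 4.748e-06. Il18 start 1 read -0.30 with 10 kb bins and -0.049 by total cut sites, and Il33 start 2 read -0.19 with 10 kb bins.

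Same-numbered libraries came from mice of the same age, and those of replicate 3 shared 34 barcodes, but the labels name no shared animal, litter or day. Their deviations from the group means correlated at 0.06, 0.17 and 0.23, and those of differently numbered libraries at -0.243 to 0.124. Each uninjured library correlated best with the injured library of its number, but injured replicate 1 correlated best with uninjured replicate 2 (0.12). The numbers were not taken as a pairing, since the labels name none, and these values do not settle whether the libraries are paired. With the replicate block 33 member tiles and 4 starts were higher, with Il1r1 start 1 gained (adjusted p 0.00915), and 39 of 40 calls held. The Il1a and Il1b starts and the untested Il1rl1 and Il33 starts had under 50 cut sites in each library, and whether depth accounts for their missing calls was not tested.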
